A study of Homo sapiens with 9 samples.

Results

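Interferon-stimulated genes and the RNA sensors upstream of them were followed as a named list of 43 genes, out of 58096 genes counted, in the human T-cell acute lymphoblastic leukaemia line ALL-SIL. The members are given by name, with no measured value in the rule, and all 43 symbols had a row in the count files. Cells of every group were electroporated with a small interfering RNA (siRNA), and total RNA was sequenced. The control group received a scrambled siRNA at 400 nM for 24 h, and the other groups received 1 of 2 siRNAs against the transcription factor gene TLX1, named s46 and s47, also for 24 h, with no dose in their titles. Each group had 3 libraries, 9 in all, numbered 1 to 3 within a group. Nothing in the labels says whether these came from separate cultures, so every p-value measures only the spread between these libraries. All 9 libraries come from electroporated cells that received an siRNA. Untreated and mock-electroporated cells were not analysed here, so a response common to the 3 groups is not measured by these comparisons.

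Double-stranded RNA in the cytoplasm is bound by the helicases RIG-I (DDX58) and MDA5 (IFIH1), which signal through the mitochondrial adaptor MAVS to the transcription factors IRF3 and IRF7 and so to the interferon genes. Secreted interferon acts through its receptor and a complex that contains STAT2 and IRF9, which binds the interferon-stimulated response element in the promoters of effector genes. Many of those effectors are themselves sensors or enzymes that act on double-stranded RNA, among them PKR (EIF2AK2) and the oligoadenylate synthetases (OAS). Exogenous siRNA duplexes can enter this pathway, and the comparison of 3 siRNAs asks whether their interferon-related transcripts differ.

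Matches to the core of the response element stand in promoters of some, not all, of the genes described here. RefSeq promoters (GRCh38.p14, 250 bases before to 50 after each annotated start) matched 34 of the 43 members (DDX58 under its newer symbol RIGI), with 44 promoters between them. The element's core was searched as GAAA, any 2 bases, GAAA on either strand, which reads as TTTC, any 2 bases, TTTC on the other strand. It was found in 25 of the 44 promoters, belonging to 21 of the 34 members, and in 1255 of the 35116 promoters in the table (3.57%). Windows of 50 bases around the match nearest the start are printed because they place this element beside genes whose values are given below. Each runs 5′ to 3′ on the gene's own strand, the plus strand for all 5, with every match that falls in it in capitals.
RSAD2, chr2:6877612-6877661: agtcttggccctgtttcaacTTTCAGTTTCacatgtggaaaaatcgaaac
OAS3, chr12:112938442-112938491: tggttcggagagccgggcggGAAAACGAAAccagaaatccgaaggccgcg
HERC5, chr4:88457025-88457074: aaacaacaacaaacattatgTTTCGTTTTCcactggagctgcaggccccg
IFIT1, chr10:89392500-89392549: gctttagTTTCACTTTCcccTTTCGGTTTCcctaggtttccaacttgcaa
ISG15, chr1:1013370-1013419: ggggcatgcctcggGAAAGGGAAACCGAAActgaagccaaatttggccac

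In IFIT1 and ISG15 the window holds 2 matches, which overlap in ISG15. The RSAD2 window belongs to the more downstream of its 2 annotated starts, and the promoter of the other start held no match. The gamma-activated site, searched as TTCNNNGAA, which reads the same on both strands, was found in 10 of the 44 promoters, of 9 members, and in 2689 of all promoters (7.66%). IRF1 is among those 9, and its promoter holds no match to the response element core as searched. Its site is shown in capitals, on the gene's minus strand.
IRF1, chr5:132490869-132490917: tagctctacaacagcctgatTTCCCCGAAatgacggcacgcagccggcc

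The core as searched was also not found for XAF1, DDX58, MAVS, ADAR, STAT2, OAS1, IRF9, IFI35, HERC6, TRIM25, SAMD9L and ZC3HAV1. GAAA strings with a closer spacing were not counted. One such string, gaaacgaaa, stands in promoters of DDX58, XAF1 and OAS1 and, on the other strand, in that of TRIM25. It also stands in the promoter of the more upstream RSAD2 start and, on the other strand, in an MX1 promoter that held no match. DHX58, IFIT2, IFITM2, IRF3, IRF7, MX2, OAS2, OASL and USP18 had no entry in the promoter table. A match is a string of letters and not a measured binding site, and a missing match does not show that the element is absent.

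Sense-strand reads in genes ranged from 21134650 (scrambled 1) to 33393740 (s46 3) per library, and 3 reads, taken as the detection floor, correspond to 0.0905 to 0.134 CPM (the reads of a gene scaled by library size). These limits cover counting error only. Scrambled 1 stood apart from the other 8 libraries: 14.4% of its reads mapped to several places, against 6.36% to 7.34% elsewhere, and 39.9% fell in genes on the counted strand, against 52.7% to 59.9%. It was the highest of the 9 libraries for 10 and the lowest for 12 of the 42 members tested, and for 31.2% and 29.04% of all genes tested. TLX1 stood at 198.1, 188.2 and 171.3 CPM in the scrambled libraries, at 63.7, 87.3 and 78.7 CPM with s46 and at 63.5, 73.7 and 75.0 CPM with s47. It fell by 1.34 ± 0.11 (SE) on the log2 scale in the mean of both siRNAs (edgeR's quasi-likelihood test, Benjamini-Hochberg adjusted p = 0.000394), the direction the labels give. T-lineage markers were all 8 tested, with a summed level of 1336 to 1500 CPM in scrambled, 1397 to 1596 with s46 and 1411 to 1500 with s47. Plasmacytoid dendritic cell markers, of a cell type that makes much interferon, summed to between 0 and 0.599 CPM in all libraries, and myeloid markers to between 0.0763 and 0.627 CPM. Among NK markers KLRF1 was at 0 in every library, while the list's sum, nearly all of it NKG7, was 155.5 to 180.3 CPM in scrambled, 105.0 to 146.4 with s46 and 108.6 to 132.0 with s47. The part of these marker levels in the results below was not tested. In bulk RNA, fewer expressing cells and less RNA per cell cannot be told apart.

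No member of the list was called in any comparison. A gene was called at a Benjamini-Hochberg adjusted p under 0.05 in edgeR's quasi-likelihood test, adjusted over the 16072 genes that passed a filter on low counts. The filter kept 42 of the 43 members and removed IFI44L, which had at most 5 reads in a library. For the mean of s46 and s47 against scrambled, 0 of 42 members passed, beside 0.566% of all genes tested (91 genes). The counts were 0 of 42 for s46 against scrambled (background 0.174%) and 0 of 42 for s47 against scrambled (background 0.33%). Between s46 and s47 there were 0 of 42, with 0% of all genes, and across the 3 groups in a joint test 0 of 42, with 0.187%. Both comparisons with scrambled use the same 3 scrambled libraries. DESeq2 called 458 genes for the mean of both siRNAs, with 2 members among them (RSAD2 and IRF7). It called 196 genes for s46 and 203 for s47, with RSAD2 the 1 member in each. The limma-voom fit called 0 members, and neither tool called any gene between s46 and s47. Without scrambled 1, edgeR's test also called 0 members in each of these comparisons, with 109 genes called for the mean of both siRNAs. Scrambled 2 weighed most: without it 1650 genes were called for the mean of both, RSAD2 and OAS3 among them, and without scrambled 3 the count was 22, with 0 members.

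At an unadjusted p under 0.05 the members also lay near the background. Of 42 members, 7 (16.7%) passed for the mean of both siRNAs, where 17.8% of all genes did: OAS2, OAS3, IRF1, IRF7, HERC5, RSAD2 and XAF1. For s46 against scrambled 6 passed (14.3%, background 11.9%), and for s47 against scrambled 6 passed (14.3%, background 12.3%). None passed between s46 and s47 (background 0.703%, 113 genes), and 5 passed among the 3 groups (11.9%, background 8.41%). The median log2 fold change of the 42 members was -0.05 for the mean of both siRNAs, beside -0.03 over all genes tested. It was -0.05 for s46 and -0.04 for s47, beside -0.02 and -0.03 over all genes, and -0.02 for s46 minus s47, beside 0.00 over all genes. Single values ran from -0.87 for IFI27 to 0.62 for OASL, both genes at no more than 1.48 CPM in any library. The members were spread over both directions, with 18 above 0 and 24 below, where 46.5% of all genes were above 0.

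The intervals say how large a difference the 9 libraries could hide. For the mean of both siRNAs, the 95% interval of 37 of the 42 members lay within a 2-fold change in either direction. The 5 that reached 2-fold were OASL, IFIT1, IFI27, HERC5 and RSAD2. Between s46 and s47 it lay within 2-fold for 37 members as well, and reached it for OAS1, OASL, IFIT1, IFI27 and ISG20, all under 5 CPM in every library. In counts simulated from these libraries, for the mean of both siRNAs, the test found 65 of the 100 genes given a 2-fold change and 30 of the 100 given a 1.5-fold one, so a missing call does not show that levels were alike.

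**Figure D1:**
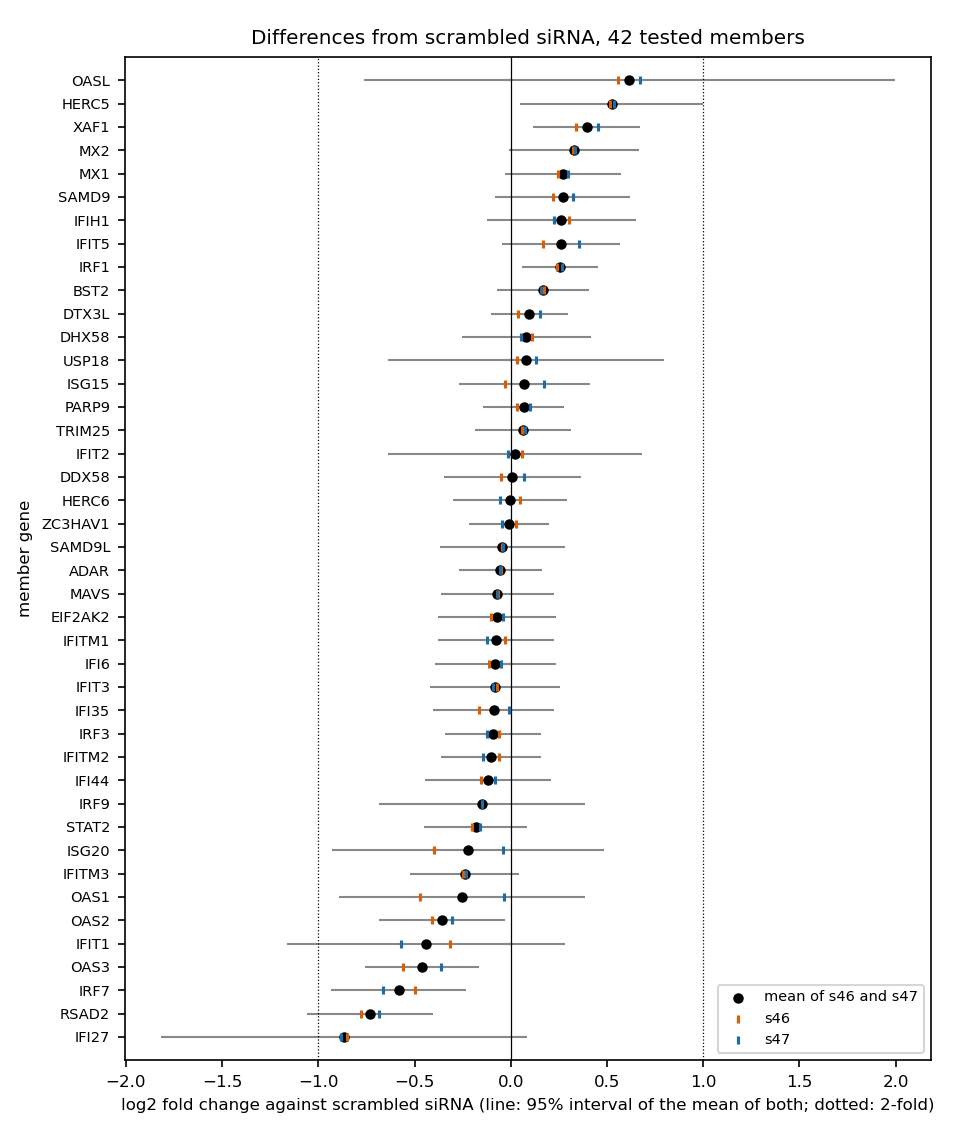
Log2 fold change against scrambled siRNA for each of the 42 tested members (black point: mean of s46 and s47, with its 95% interval as a line; orange and blue ticks: s46 and s47 alone; dotted lines: 2-fold). Most intervals cross 0 and lie inside the dotted lines; RSAD2, IRF7, OAS3 and OAS2 lie wholly below 0, and HERC5, XAF1 and IRF1 wholly above it.

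Levels per length were compared in RPKM, the CPM divided by the exon length in kilobases. That length covers all annotated exons of a gene together, so it can exceed the length of the transcript expressed. In the scrambled libraries 17 members were above 10 RPKM, 18 between 1 and 10 and 8 below 1, and the median member stood at the percentile 60.6 of all genes tested. IFITM1, a membrane protein that blocks virus entry, was highest at 203.6 ± 49.7 RPKM (SD, n = 3), followed by ADAR at 65.1 ± 6.31 RPKM. IFITM1 shares 32.5% of its exon length with IFITM2 on the same strand, so reads of this pair are uncertain. Several genes often used as interferon reporters were low: IFIT1 at 0.817, USP18 at 0.330, IFI27 at 0.2498, OASL at 0.0871 and IFI44L at 0.0161 RPKM in the mean of the scrambled libraries. MX1 stood at 1.34 and ISG15 at 11.0 RPKM. Other effectors of the list were not low, among them IFI6 at 21.98, IFI44 at 12.4, IFIT3 at 6.81 and RSAD2 at 5.78 RPKM.

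**Figure D2:**
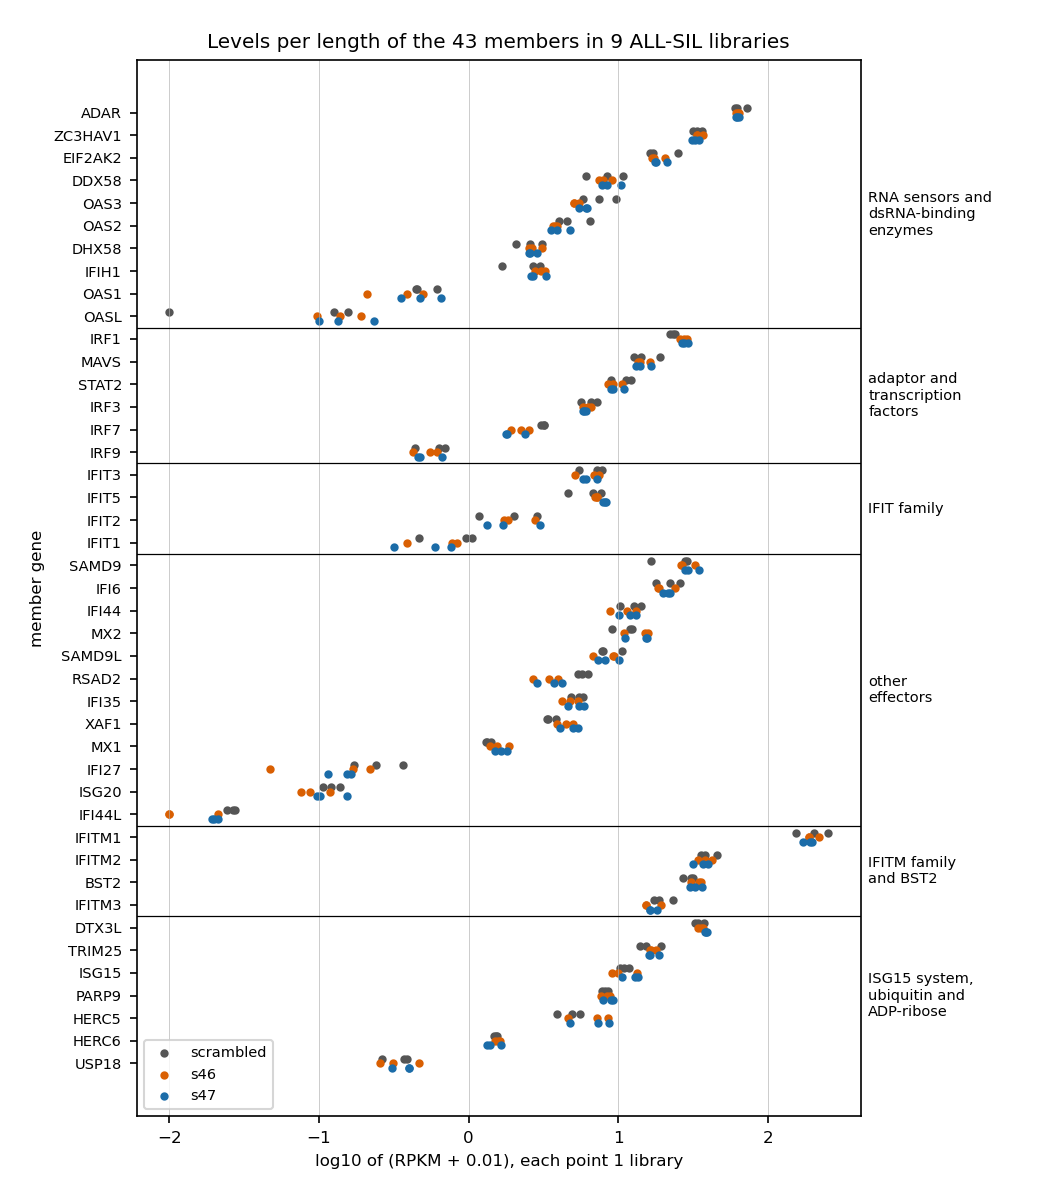
Level per length of all 43 members, as log10 of (RPKM + 0.01), with 1 point per library coloured by siRNA group and genes grouped by role. The 3 groups overlap for most members; RSAD2 and IRF7 show every siRNA point to the left of the scrambled points, and OASL and IFI44L have points at 0 reads.

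The cytoplasmic sensors were present in all libraries and did not separate the groups. DDX58 (RIG-I, which binds short duplexes with 5′ triphosphates; chromosome 9, 32455705 to 32526324, GRCh38, minus strand) was at 26.4, 36.7 and 47.1 CPM in scrambled, 34.7, 32.2 and 39.5 with s46 and 36.6, 33.8 and 45.2 with s47. All 6 siRNA values fell within the scrambled range, and the log2 difference was 0.01 ± 0.16 (SE; 95% interval -0.35 to 0.36). IFIH1 (MDA5, which binds long duplexes; chromosome 2, 162267079 to 162318703) was at 8.47, 13.7 and 15.2 CPM in scrambled, 16.6, 14.1 and 15.5 with s46 and 13.8, 13.2 and 16.9 with s47. Scrambled 1 alone was low, and the difference was 0.26 ± 0.18 (adjusted p = 0.438 in edgeR's quasi-likelihood test). DHX58 (LGP2, a helicase that modulates the other two) was at 7.93, 9.81 and 11.8 CPM in scrambled, 9.76, 10.2 and 11.9 with s46 and 9.74, 11.0 and 9.88 with s47, and its groups overlapped.

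EIF2AK2, ADAR and ZC3HAV1 were more abundant than DDX58, IFIH1 and DHX58. EIF2AK2 (PKR, the kinase that phosphorylates the translation factor eIF2α) was at 269.8, 182.8 and 176.5 CPM in scrambled, 220.0, 181.2 and 185.4 with s46 and 228.8, 191.3 and 190.9 with s47. In each group library 1 was the highest, and the groups overlapped. ADAR, which edits adenosine in duplexes, was at 700.1, 585.6 and 605.6 CPM in scrambled, 608.4, 621.4 and 595.9 with s46 and 603.7, 620.6 and 592.4 with s47. The ADAR interval was among the narrow ones, from -0.27 to 0.16 on the log2 scale. The zinc finger antiviral protein gene ZC3HAV1, which targets CpG-rich viral RNA, ranged from 256.0 to 302.7 CPM over the 9 libraries.

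Among the oligoadenylate synthetases, which make the activator of RNase L, OAS3 and OAS2 had lower siRNA values. OAS3 (chromosome 12, 112938352 to 112973249, plus strand) was at 80.1, 48.2 and 60.9 CPM in scrambled, 41.8, 41.6 and 44.9 with s46 and 45.1, 50.5 and 51.3 with s47. All s46 values were below all scrambled ones, whereas s47 overlapped them through scrambled 2. The log2 difference for the mean of both was -0.46 ± 0.14 (SE), with adjusted p = 0.168 in edgeR's quasi-likelihood test. Without scrambled 2 the difference was -0.62 (adjusted p = 0.0189). OAS3 also passed with every library kept and no filter on low counts (adjusted p = 0.0378), so the call turned on the setting. For s46 alone it passed in the same settings (adjusted p = 0.0373 without scrambled 2 and 0.0442 with no filter).

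OAS2 was at 40.7, 25.1 and 28.4 CPM in scrambled, 23.8, 22.8 and 24.3 with s46 and 29.6, 24.3 and 22.2 with s47. The s46 values lay below the scrambled ones and the s47 values overlapped them, with a log2 difference of -0.36 ± 0.15 for the mean of both (edgeR's quasi-likelihood test, adjusted p = 0.258). OAS1 was at 2.20, 2.16 and 3.01 CPM in scrambled, 0.992, 1.88 and 2.41 with s46 and 1.69, 2.29 and 3.19 with s47, with overlapping groups. OASL, related to these but without their enzyme activity, stayed at or under 0.786 CPM in all libraries and at 0 in scrambled 1.

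MAVS, the adaptor that the helicases share, was at 224.5, 166.2 and 150.8 CPM in scrambled, 164.7, 193.0 and 159.8 with s46 and 164.4, 194.7 and 155.4 with s47. Scrambled 1 was the highest and the groups overlapped. IRF3, the factor that is already present before stimulation, was at 27.4, 21.3 and 25.0 CPM in scrambled, 23.8, 24.8 and 22.0 with s46 and 21.9, 23.3 and 22.5 with s47, all siRNA values within the scrambled range.

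IRF7 (ENSG00000185507.19), the factor that amplifies interferon production (chromosome 11, 612553 to 615999, minus strand), was at 8.34, 7.99 and 8.37 CPM in scrambled, 4.996, 6.61 and 5.85 with s46 and 4.72, 6.20 and 4.62 with s47. All 6 siRNA values were below the 3 scrambled values, with means of 8.23 ± 0.211 (SD, n = 3), 5.82 ± 0.805 and 5.18 ± 0.886 CPM. The log2 difference was -0.58 ± 0.16 (SE) for the mean of both (edgeR's quasi-likelihood test, adjusted p = 0.144), and DESeq2 called it at -0.57 (adjusted p = 0.032). The values of s46 minus s47 differed by 0.17, with an interval of -0.25 to 0.58.

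IRF1, a factor induced mainly by interferon gamma and cytokines (chromosome 5, 132481609 to 132490798, minus strand), was at 186.7, 174.0 and 180.2 CPM in scrambled, 213.8, 224.5 and 201.5 with s46 and 226.7, 215.2 and 209.4 with s47. All siRNA values were above all scrambled ones, by 0.26 ± 0.09 (SE) on the log2 scale, and the difference was not called (adjusted p = 0.218). IRF9 and STAT2, partners in the response element complex, overlapped between groups. IRF9 was at 2.60, 1.62 and 2.35 CPM in scrambled, 2.29, 2.05 and 1.57 with s46 and 2.47, 1.75 and 1.70 with s47, and 48.4% of its exon length is shared with another gene on the same strand, so its reads are uncertain. STAT2 was at 69.3, 54.8 and 74.4 CPM in scrambled, 56.1, 51.8 and 64.5 with s46 and 56.4, 54.6 and 66.4 with s47.

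Few members had groups that did not overlap. Every siRNA library lay above every scrambled one for 2 of 42 members (IRF1 and XAF1, 4.76%, background 4.47%) and below for 2 (IRF7 and RSAD2, 4.76%, background 3.65%).

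RSAD2 (ENSG00000134321.11; viperin, an enzyme that makes a chain-terminating nucleotide) had the lowest p of all members. It lies on chromosome 2, 6865806 to 6898239, plus strand, and was at 27.5, 25.96 and 30.3 CPM in scrambled, 16.7, 12.9 and 19.2 with s46 and 20.3, 13.7 and 18.0 with s47. All 6 siRNA values were below all 3 scrambled values, with means of 27.9 ± 2.20 (SD, n = 3), 16.3 ± 3.16 and 17.4 ± 3.33 CPM. The siRNA mean was 1.66-fold lower, a log2 difference of -0.73 ± 0.15 (SE; interval -1.06 to -0.40), unadjusted p = 0.000343 and adjusted p = 0.0556 in edgeR's quasi-likelihood test. The single siRNAs gave -0.78 (adjusted p = 0.135) and -0.69 (adjusted p = 0.2), and s46 minus s47 was -0.09 (interval -0.48 to 0.30). RSAD2 therefore sat just outside the threshold, and the call turned on the setting. In fits without a term for the replicate number, it passed with upper-quartile scaling (adjusted p = 0.0492), library totals (0.0394) and DESeq2 (0.00218). It also passed with no filter on low counts (0.000412) and without scrambled 2 (0.0262). It did not pass with limma-voom (0.0539), RLE scaling (another scaling of library size, 0.057), a minimum count of 30 (0.054) or a non-robust fit (0.0588). Nor did it pass with counts taken without strand (0.0689), without the 3 libraries numbered 1 (0.0841) or with any other library left out (0.0562 to 0.167). The fit with a replicate block (a term for the replicate number), in which RSAD2 was called, is given in the last section.

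XAF1, an interferon-induced protein that favours apoptosis (chromosome 17, 6755447 to 6775647, plus strand), was at 22.1, 22.6 and 25.2 CPM in scrambled, 32.9, 25.7 and 29.7 with s46 and 35.5, 26.9 and 33.1 with s47. All siRNA values were above all scrambled ones, by 0.40 ± 0.13 (SE) on the log2 scale, with adjusted p = 0.195 in edgeR's quasi-likelihood test. The lowest s46 value lay close to the highest scrambled one.

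**Figure D3:**
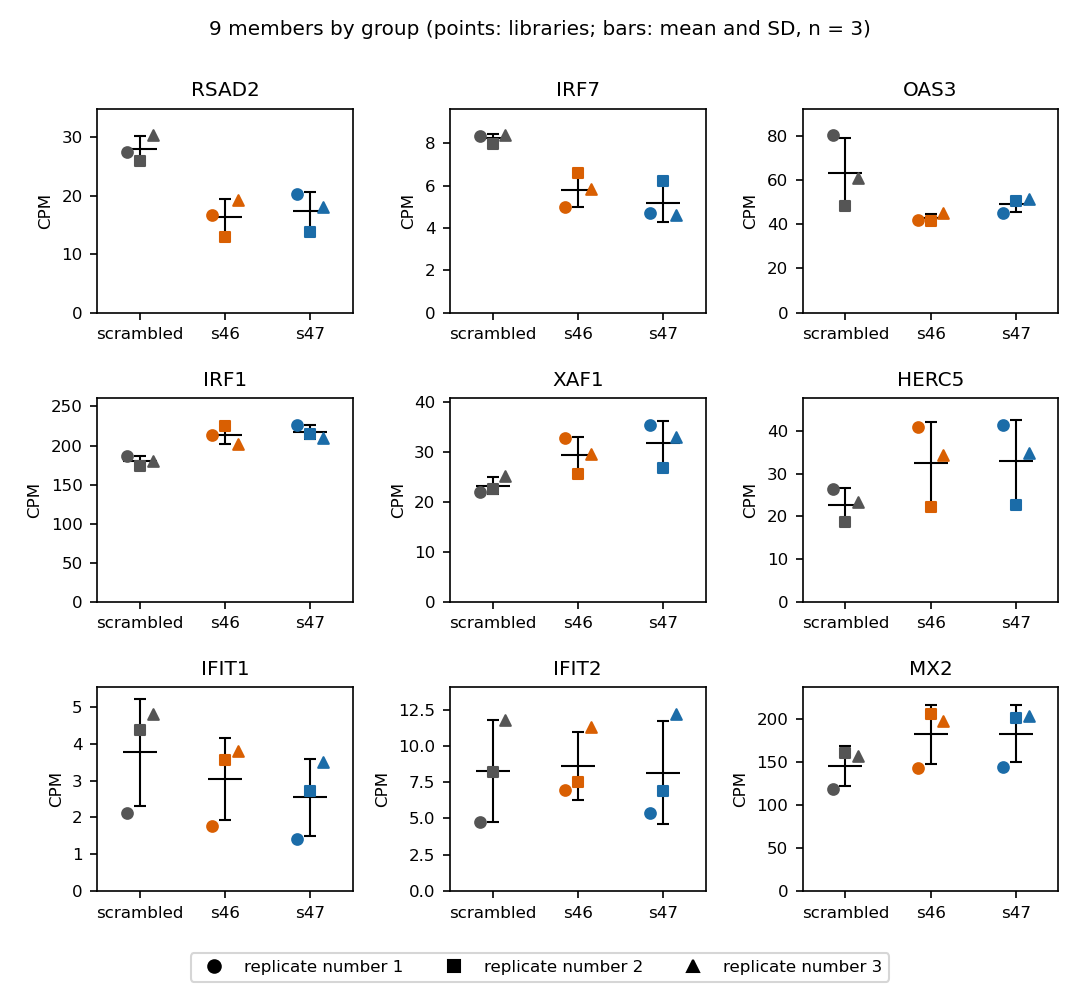
CPM of 9 members by siRNA group, with 1 point per library, marker shape for the replicate number, and bars for the mean and SD (n = 3). RSAD2 and IRF7 lie lower in every siRNA library, IRF1 and XAF1 higher, and in IFIT1, IFIT2 and MX2 library 1 is the lowest of its group.

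Of the IFIT genes, whose proteins bind viral RNA ends, IFIT1, IFIT2 and IFIT3 varied more between libraries than between groups. IFIT1 was at 2.11, 4.38 and 4.81 CPM in scrambled, 1.75, 3.55 and 3.80 with s46 and 1.42, 2.70 and 3.49 with s47. IFIT2 was at 4.75, 8.19 and 11.8 CPM, 6.98, 7.51 and 11.3, and 5.39, 6.90 and 12.2 in the same order. IFIT3 was at 14.4, 20.5 and 19.1 CPM, 13.6, 18.1 and 19.7, and 15.4, 16.2 and 19.0. Library 1 was the lowest of each group for all 3 genes, and the groups overlapped. IFIT5, chosen after its values were seen, ranged from 18.5 to 30.8 CPM in scrambled, 28.1 to 29.1 with s46 and 31.97 to 33.1 with s47, so that s46 lay wholly below s47.

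Across all members, the 3 libraries numbered 1 lay below every other library for 4 of 42 (DHX58, IFIT1, IFIT3 and MX2, 9.52%, background 4.74%) and above for 1 (EIF2AK2, 2.38%, background 4.01%). The labels do not say what the number stands for. Between s46 and s47, every s46 value was below every s47 value for 3 members (OAS3, IFIT5 and DTX3L, 7.14%, background 2.4%) and above for 0 (background 2.68%). Their log2 differences were -0.19 (interval -0.54 to 0.15) for OAS3, -0.18 (-0.54 to 0.17) for IFIT5 and -0.12 (-0.35 to 0.11) for DTX3L, and none was called.

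**Figure D4:**
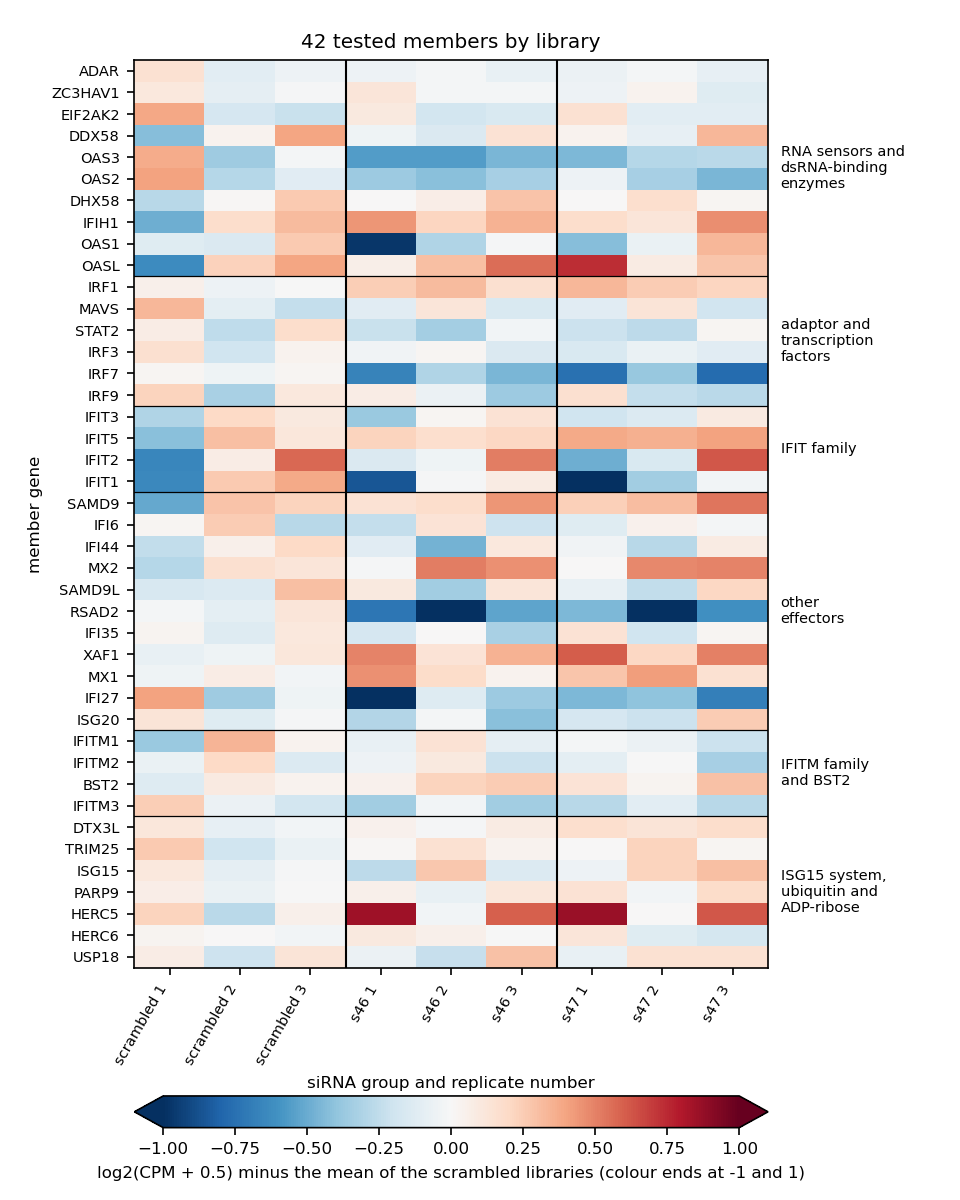
Log2(CPM + 0.5) of the 42 tested members in each library, minus the mean of the 3 scrambled libraries, with genes grouped by role and colours ending at -1 and 1. RSAD2, IRF7 and OAS3 are blue in the siRNA libraries, and IFIT1 and IFIT2 are bluest in library 1.

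The remaining effectors showed no shared shift. ISG15, the ubiquitin-like protein, was at 11.1, 9.68 and 10.2 CPM in scrambled, 8.50, 12.5 and 9.35 with s46 and 9.92, 12.1 and 12.8 with s47. HERC5, the ligase that attaches ISG15 to proteins (chromosome 4, 88457117 to 88506163, plus strand), ranged from 18.6 to 26.4 CPM in scrambled, from 22.1 to 41.0 with s46 and from 22.6 to 41.5 with s47. The groups overlapped, with library 2 the lowest in each, and the log2 difference was 0.52 ± 0.22 (adjusted p = 0.255 in edgeR's quasi-likelihood test, and 0.0119 with no filter on low counts). At each replicate number both siRNA values were above the scrambled one, though the labels do not pair the libraries. HERC5 was also called in the fit with a replicate block, given in the last section. The other 5 genes of the ISG15 system and the related ligases (USP18, HERC6, TRIM25, PARP9 and DTX3L) had log2 differences for the mean of both between -0.00 (HERC6) and 0.10 (DTX3L).

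The dynamin-like GTPase MX1 was at 11.2, 12.2 and 11.3 CPM in scrambled, 16.1, 13.2 and 11.8 with s46 and 14.1, 15.6 and 12.9 with s47, overlapping between scrambled and s46. IFI6, a protein that inhibits viral replication, was at 19.1, 22.5 and 15.4 CPM in scrambled, 15.9, 20.7 and 16.2 with s46 and 17.3, 19.3 and 18.5 with s47, also overlapping. MX2, chosen after its values were seen, ranged from 118.1 to 160.9 CPM in scrambled, 142.6 to 205.8 with s46 and 144.6 to 203.1 with s47, at a log2 difference of 0.33 ± 0.16 (adjusted p = 0.293 in edgeR's quasi-likelihood test). SAMD9, a restriction factor for poxviruses, was at 114.3 CPM in scrambled 1 and between 180.2 and 236.1 CPM in the other 8 libraries. Its log2 difference was 0.27 (adjusted p = 0.386 in edgeR's quasi-likelihood test). IFI35, IFI44, SAMD9L and ISG20 had log2 differences between -0.22 (ISG20) and -0.04 (SAMD9L). The IFITM genes and BST2, which act on enveloped viruses, ran between -0.24 (IFITM3) and 0.17 (BST2) on the log2 scale, and no member of this group was called.

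The interferon genes themselves were nearly silent. Of 21, 15 had 0 reads in every library and 1, IFNL1, had enough reads to be tested, with 265 reads over the 9 libraries, a scrambled mean of 1.31 CPM and a log2 difference of -0.52 (adjusted p = 0.349 in edgeR's quasi-likelihood test). IFNB1, the interferon beta gene that IRF3 switches on after RNA sensing, had 8 reads over all 9 libraries, and at most 2 in any of them.

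In the neighbouring steps of the pathway, no gene was called for the mean of both siRNAs in edgeR's quasi-likelihood test (background 0.566%), while in each of the 4 lists a larger share passed an unadjusted p under 0.05 than the 17.8% of all genes that did. Among receptors and proximal signalling genes, 0 of 14 tested were called and 6 (42.9%) passed unadjusted, 4 with higher and 2 with lower values. Among genes signalling below the sensors the counts were 0 and 8 of 19 (42.1%, 1 higher and 7 lower), and among the other nucleic acid sensors 0 and 7 of 17 (41.2%, 5 higher and 2 lower). Among 45 other interferon-stimulated genes 0 were called and 11 (24.4%) passed unadjusted, with a median of -0.04. These shares describe the lists and were not tested. The receptor chains IFNAR1 and IFNAR2 had log2 differences of -0.01 and -0.33. The receptor kinases JAK1 and TYK2 had 0.25 and -0.29, the kinase TBK1 had -0.06, and the DNA-sensing adaptor STING1 had -0.47 (adjusted p = 0.171). Without scrambled 2, edgeR's test called 1650 genes for the mean of both, many more than the 91 of the main fit. Among them were IFNAR2 (-0.50, adjusted p = 0.0342), TYK2 (-0.39, adjusted p = 0.0346) and STING1 (-0.55, adjusted p = 0.0452). With s47 alone, RNF125, a ubiquitin ligase that marks RIG-I for degradation, was the 1 call of the 19 tested genes of the signalling list (background 0.33%). It was at 48.0, 40.8 and 41.97 CPM in scrambled, 33.7, 31.98 and 36.8 with s46 and 28.0, 24.8 and 29.1 with s47, and with s47 it fell by 0.67 ± 0.13 (SE) on the log2 scale (edgeR's quasi-likelihood test, adjusted p = 0.0458). In the mean over s46 and s47 it was at -0.51 (edgeR's quasi-likelihood test, adjusted p = 0.0557). That mean passed with upper-quartile scaling (0.0461), library totals (0.0363), DESeq2 (0.00245), no filter (0.0214), a minimum count of 30 (0.0485) and without scrambled 2 (0.0237). It also passed with the replicate block, given in the last section. It did not pass with RLE scaling (0.0587), limma-voom (0.0637), a non-robust fit (0.0585) or counts taken without strand (0.0956). Nor did it pass with any other library left out (0.101 to 0.142) or without the 3 libraries numbered 1 (0.231). The s46 difference was -0.35 (adjusted p = 0.394), and s46 minus s47 was 0.32 (adjusted p = 1), so the siRNAs are not shown to differ. The s47 call held with DESeq2 (0.000436), no filter (0.0106), a minimum count of 30 (0.0415), the other scalings (0.0416 to 0.0484), a non-robust fit (0.0477), and without scrambled 1 (0.0455) or scrambled 2 (0.0395). It was lost, at log2 differences of -0.60 to -0.71, without any 1 of the 3 s47 libraries (adjusted p between 0.203 and 0.227 in edgeR's test). The s47 call was also lost without any 1 of the 3 s46 libraries (0.0803 to 0.101), without scrambled 3 (0.148) and without the 3 libraries numbered 1 (0.152). The same held with only scrambled and s47 in the fit (0.173), with counts taken without strand (0.0864) and with limma-voom (0.0519).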

How the data were processed

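Total RNA of ALL-SIL cells was sequenced with a stranded, ribosome-depleted kit, per the labels' protocols. The deposited files hold read counts per gene, without strand and for each strand, made by the authors. The build was GRCh38, per the submitters' processing notes. Aligner, counter and annotation were not given in the sources used here. Gene names and exon lengths came from GENCODE 29, which matched 57447 of 58096 identifiers. Rows that name no gene were left out of library sizes; these unassigned, multimapping or ambiguous reads made up 40.1% to 60.1% of a library. The sense counts were tested with edgeR 4.0.16 in R 4.3.3 (TMM scaling, filterByExpr with a minimum count of 10, robust quasi-likelihood F test, Benjamini-Hochberg over 16072 genes, threshold 0.05) with all 9 libraries in 1 fit; alternatives used DESeq2 1.42.0 and limma 3.58.1. CPM and RPKM used the TMM-scaled library sizes. On simulated counts with 200 changed genes, 6 false calls were made for the mean of both siRNAs. Values in every library are given for the 5 members with the lowest unadjusted p among the 3 groups and for a set of sensors, adaptors and common effectors; other members are given by range. The members and lists were chosen with earlier results of these data known. The values of 1 gene of the pathway lists are not reported here.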

Additional observations from a re-analysis of the deposited data

How the results depend on the processing

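Of 3470 member values recomputed under the alternatives, 3224 kept their sign and their side of the threshold, 226 changed sign without a call, 20 became calls and 0 calls reversed. Called genes for the mean of both siRNAs (91) numbered 458 with DESeq2, 876 with no filter and 222 with a replicate block. For s46 (28) they numbered 18 with upper-quartile scaling, 14 with library totals, 196 with DESeq2, 384 with no filter, 6 with only the groups compared and 74 with the block. For s47 (53) they numbered 203 with DESeq2, 432 with no filter, 8 with only the groups compared, 125 with the block and 33 without the 3 libraries numbered 1, an alternative chosen after seeing the data. For s46 against s47 they numbered 3 with no filter. Among the 3 groups (30) they numbered 17 with upper-quartile scaling, 16 with library totals, 248 with DESeq2, 491 with no filter and 84 with the block. Members called for the mean of both numbered 1 with upper-quartile scaling, 1 with library totals, 2 with DESeq2, 3 with no filter and 2 with the block. For s46 and for s47 they numbered 1 with DESeq2, 2 with no filter and 1 with the block, and among the 3 groups 1 under each of these. The members' median moved to -0.12 (mean of both) and -0.11 (s47) with library totals. The cause was not tested. The fit with only the groups compared applies to single siRNAs alone.

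Leaving out 1 library at a time gave 22 (without scrambled 3) to 1650 (without scrambled 2) called genes for the mean of both, 4 to 225 for s46, 4 to 275 for s47, 0 to 0 for s46 against s47 and 1 to 66 among the 3 groups. Members called were 0 to 2 for the mean of both (2 without scrambled 2), 0 to 1 for s46 and 0 for the others. Medians were -0.05 to -0.01, -0.04 to -0.01, -0.038 to 0.034 and -0.08 to -0.02 for the mean, s46, s47 and s46 minus s47, and TLX1 -1.39 to -1.27, -1.38 to -1.16, -1.44 to -1.32 and 0.01 to 0.23. The labels do not say that the replicate numbers pair the libraries, and the fits were compared without taking them as pairs, because 1 of 9 same-numbered pairs (scrambled 2 with s47 2) missed a correlation of 0.1. Same-numbered libraries had correlations of deviations from -0.0528 to 0.524, with 8 of 9 over 0.1, against -0.37 to 0.169 for the other 18 pairs, and every library correlated best with 1 of its own number, a hint from the data and not the design. With the replicate block RSAD2 was called at -0.75 for the mean of both (edgeR, adjusted p = 0.0124), and for s46 (0.0356) and s47 (0.0431) singly. It also called HERC5 at 0.49 (0.049) and RNF125 at -0.51 (0.025) for the mean of both.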
